A study of Mus musculus with 20 samples.

Results

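The genes described here are 37 members of the unfolded protein response and of protein folding in the endoplasmic reticulum (ER), out of 55487 genes in the largest of 3 count tables. They were chosen by name, as stress sensors and their transcription factors, chaperones, disulfide isomerases, lectin chaperones, translocon subunits and parts of ER-associated degradation. No cut on measured values was used, but earlier results of these data were known when the choice was made. Each member was found in all 3 tables and passed the filter on low counts in every comparison. The data are 20 RNA-seq libraries of sorted mouse cDC1s, the conventional dendritic cells that cross-present antigen. In the first table, XCR1+CD8a+ cDC1s came from WT C57BL/6 mice, either untreated or on day 15 of TLI/ATS, which is total lymphoid irradiation with anti-thymocyte serum, with 2 libraries per group. In the second table, XCR1+CD8a+ cDC1s of EpoR-tdTomato reporter mice, all given TLI/ATS and taken on day 15, were divided into an EpoR+ and an EpoR- fraction, with 2 libraries each. The sources used here do not name the tissue of these 8 libraries. The third table held CCR7+ XCR1+ SIRPa- cDC1s from spleen or peripheral lymph node, the latter labelled migratory. They came from Eporflox/flox control mice and from Epor-Xcr1-Cre cKO mice, in which Cre under Xcr1 deletes the erythropoietin receptor gene Epor in cDC1s, with 3 libraries for each tissue and genotype. The labels do not say whether libraries of a group came from separate animals, so p-values measure only the spread between these libraries, which may be technical.

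The unfolded protein response matches the folding capacity of the ER to its load. Its sensors are the kinase and nuclease IRE1 (Ern1), which splices Xbp1 mRNA, the kinase PERK (Eif2ak3), which slows translation and favours ATF4, and ATF6, which is cleaved in the Golgi. Their targets include the chaperone BiP (Hspa5), disulfide isomerases and the degradation machinery. In cDC1s the IRE1 and XBP1 branch is known to be active at rest and to bear on cell survival and cross-presentation. Counts per gene do not separate spliced from unspliced Xbp1 mRNA, so sensor activity was not measured here.

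Promoter sequences are shown first, as a description. Among members with large tissue differences, Derl3 holds a textbook ER stress element, while Chac1, Atf3, Sec61b and Edem2 do not. A link between element and tissue difference was not tested. RefSeq promoter entries (build GRCm38.p6) were found for 32 of the 37 members, and the 250 bases before the annotated start were searched on both strands. Atf6, Hyou1, Manf, Sec61a1 and Derl1 had no entry. The ER stress response element (ERSE), at which ATF6 and XBP1 act with NF-Y, was searched as CCAAT, any 9 bases and CCACG. It was found in 9 of the 32 members (28.1%) and in 37 of 32851 promoters of the same length (0.113%). The latter are entries for 27025 symbols, while members are counted as genes. As the members were chosen by name as genes of this response, these shares describe that choice and test nothing. The matches are written in the orientation of the motif, with the fixed letters in capitals.
Calr: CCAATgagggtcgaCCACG
Canx: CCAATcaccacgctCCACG
Creld2: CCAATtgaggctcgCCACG
Derl3: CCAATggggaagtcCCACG
Dnajc3: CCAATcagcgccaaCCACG
Hsp90b1, farther match: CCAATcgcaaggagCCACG
Hsp90b1, nearer match: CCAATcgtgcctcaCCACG
Hspa5: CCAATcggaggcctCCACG
Pdia6: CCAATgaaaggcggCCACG
Syvn1: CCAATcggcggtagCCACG
The second element, ERSE-II (ATTGG, any 1 base and CCACG), was found in Herpud1 alone among the members and in 0.0304% of all promoters. CARE (TTGCATCA), an element bound by ATF4 with C/EBP partners, was found in Atf3, Chac1 and Herpud1 and in 0.791% of all promoters. No member held UPRE (TGACGTGG), which 0.563% of all promoters hold. A match is a description of letters and not a measured site of binding. Of the promoters below, 3 hold ERSE, and Herpud1 holds CARE followed by ERSE-II; no base of these 4 windows lies in an exon of the GENCODE annotation. Matches are in capitals.
Creld2, chr15:88819396-88819645, plus strand: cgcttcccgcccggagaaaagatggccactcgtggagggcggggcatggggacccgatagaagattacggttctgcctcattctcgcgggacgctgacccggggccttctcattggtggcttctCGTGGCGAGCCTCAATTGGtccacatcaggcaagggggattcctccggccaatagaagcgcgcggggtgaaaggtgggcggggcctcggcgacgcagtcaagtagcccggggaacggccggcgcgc
Derl3, chr10:75893148-75893397, plus strand: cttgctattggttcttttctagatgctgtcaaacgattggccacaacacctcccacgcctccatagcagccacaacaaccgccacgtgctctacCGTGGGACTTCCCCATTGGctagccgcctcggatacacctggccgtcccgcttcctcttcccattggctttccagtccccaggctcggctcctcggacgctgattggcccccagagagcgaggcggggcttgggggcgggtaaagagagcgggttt
Dnajc3, chr14:118937682-118937931, plus strand: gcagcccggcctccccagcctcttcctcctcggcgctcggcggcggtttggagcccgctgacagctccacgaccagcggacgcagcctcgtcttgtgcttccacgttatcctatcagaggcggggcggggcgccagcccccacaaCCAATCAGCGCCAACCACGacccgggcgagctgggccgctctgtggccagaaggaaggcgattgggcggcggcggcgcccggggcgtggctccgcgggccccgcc
Herpud1, chr8:94386179-94386428, plus strand: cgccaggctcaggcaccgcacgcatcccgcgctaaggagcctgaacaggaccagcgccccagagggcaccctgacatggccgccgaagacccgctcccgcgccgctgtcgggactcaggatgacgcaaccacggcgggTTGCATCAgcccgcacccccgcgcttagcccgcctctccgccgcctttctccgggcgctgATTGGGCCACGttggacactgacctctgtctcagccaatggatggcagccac

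CPM here and below is the count relative to the library's depth, with depths adjusted by the trimmed mean of M-values (TMM). Total counts (M, counts times 1e-06) were 40.6 to 77.6 M per library in the first table, 33.7 to 40.1 M in the second and 26.6 to 49.7 M in the third. Epor, as a check of the labels, had 236 and 127 counts after TLI/ATS and 0 in both untreated libraries, and 525 and 657 counts in EpoR+ against 4 and 11 in EpoR- libraries. In lymph node controls it had 24, 28 and 4 counts and in lymph node cKO 0 in all 3. In spleen it had 1, 0 and 6 counts in controls and 0, 2 and 0 in cKO, so these counts cannot check the deletion at this depth. Of 15 cDC1 markers, all were detected in every group. Differences were tested in edgeR by quasi-likelihood, with Benjamini-Hochberg correction across the whole of each table and a threshold of 0.05.

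Compared per kilobase of exon, the folding machinery lay at the top and the ATF4 target enzymes at the bottom. In untreated cDC1s the disulfide isomerase Pdia3, which serves glycoproteins and MHC class I loading, was highest at 406 ± 10 CPM per kb (SD, n = 2). Calr, the lectin chaperone calreticulin, followed at 363 ± 1.36, and Sdf2l1, a BiP cofactor, at 357 ± 5.85 CPM per kb, a gap about as wide as the SD of Sdf2l1. Trib3, a pseudokinase induced by CHOP, was lowest at 0.406 ± 0.00819 CPM per kb. In spleen controls the order differed, led by Ppp1r15a, the phosphatase subunit that restores translation, at 384 ± 37.3 CPM per kb (SD, n = 3). The stress transcription factor Atf3 was at 310 ± 16.6 and Herpud1, an ER-associated degradation adaptor, at 293 ± 27.3 CPM per kb, whose spreads meet. Levels across tables were scaled separately and were not tested against each other.

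The largest differences among the members lay between lymph node and spleen. In control mice 18 of the 37 members were lower and 3 higher in lymph node cDC1s (48.6% and 8.11%), where 20.3% and 21% of the 17362 genes tested were lower and higher. In cKO mice 23 were lower and 2 higher (62.2% and 5.41%), against 15.3% and 14.1% of all genes. All 3 lymph node control libraries lay below all 3 spleen controls in 16 members (43.2%, against 23.9% of all genes) and above them in 3 (8.11%, against 25.6%). In cKO mice they lay below in 25 members (67.6%, against 26.1%) and above in 4 (10.8%, against 24.8%). Without regard to direction, 41.3% of all genes were called in control and 29.4% in cKO mice. The median log2 difference over the members was -0.23 in control and -0.47 in cKO mice, while over all genes it was -0.01 and 0.00. The cKO and control comparisons use different libraries. Of the members lower in each, 16 were lower in both, which is 88.9% of the control list and 69.6% of the cKO list, where for all genes the shares were 62.7% and 83.2%. As these are bulk libraries of sorted cells, fewer cells of a kind and less RNA per cell cannot be told apart.

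**Figure D1:**
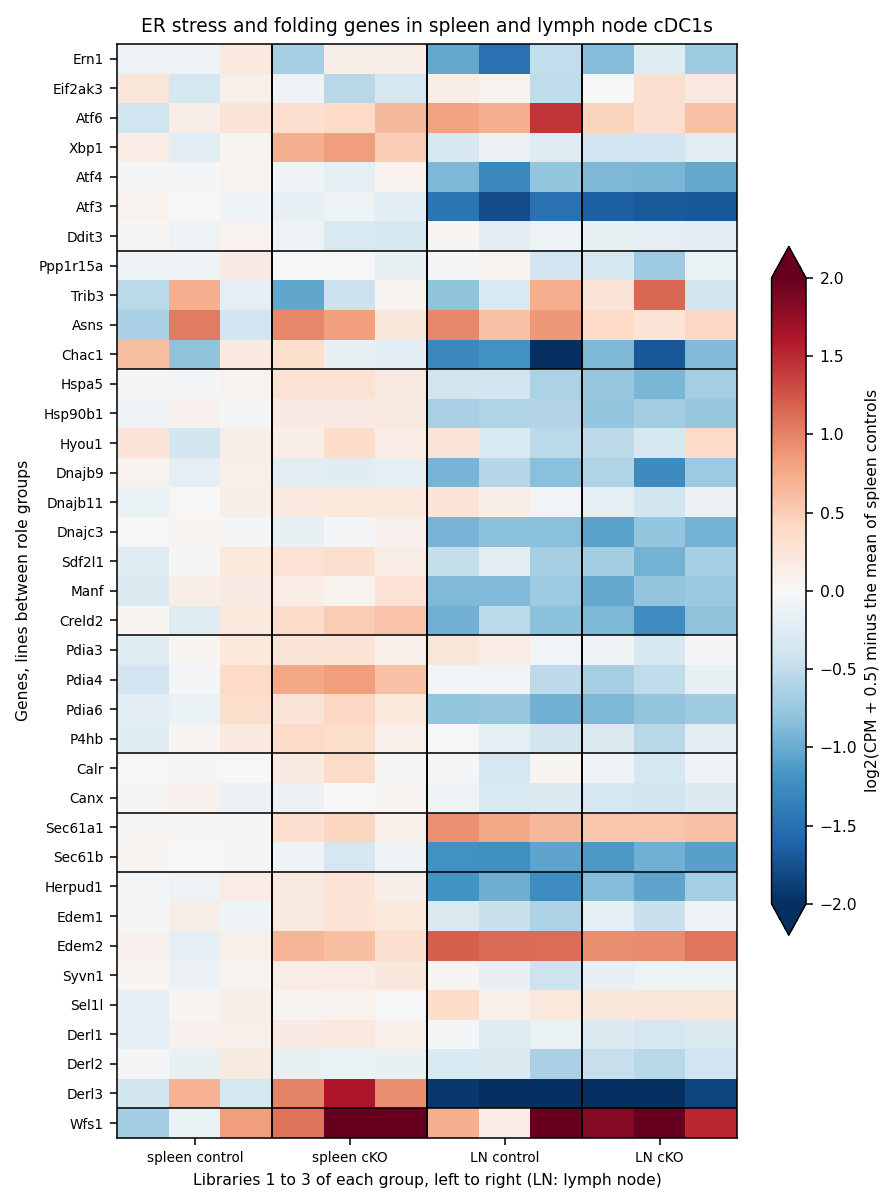
Each row is 1 of the 37 genes and each column 1 of the 12 spleen and lymph node libraries; colour gives log2(CPM + 0.5) minus the mean of the 3 spleen controls, on a scale that saturates at 2 in either direction. Atf3, Atf4, Herpud1, Sec61b and Derl3 are blue in all 6 lymph node libraries, while Edem2 and Sec61a1 are red there; Trib3, Asns, Chac1, Derl3 and Wfs1 have few counts and vary within groups.

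Among the sensors and transcription factors, Atf4, Atf3 and Ern1 were lower in lymph node than in spleen controls, and Atf6 was higher. Atf4, which directs amino acid supply and stress genes, had 249, 253 and 269 CPM in spleen controls and 137, 105 and 150 in lymph node controls. The groups did not overlap, and the log2 difference was -0.98 ± 0.11 (SE; adjusted p = 6.36e-06). In cKO mice Atf4 had 244, 226 and 271 CPM in spleen and 138, 136 and 126 in lymph node, a log2 difference of -0.89 ± 0.11 (adjusted p = 2.5e-05).

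Atf3 (chr1:191170296-191218039), a stress-induced repressor and activator, had 702, 669 and 631 CPM in spleen controls and 243, 195 and 237 in lymph node controls. Its lymph node values were all under those of the spleen, by 1.57 ± 0.09 on the log2 scale (adjusted p = 2.42e-09). In cKO mice spleen libraries had 596, 624 and 569 CPM and lymph node libraries 214, 207 and 206, with a log2 difference of -1.51 ± 0.09 (adjusted p = 4.89e-09). The 2 tissue differences of Atf3 differed by 0.06 ± 0.12 in the interaction test (adjusted p = 0.904).

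Ern1 (chr11:106394650-106487852) had 9.17, 9.24 and 11.4 CPM in spleen and 4.61, 3.2 and 6.89 in lymph node controls, a log2 difference of -1.02 ± 0.32 (adjusted p = 0.0201). That call was lost without spleen control library 3 (-0.87) and without lymph node control library 1 (-0.97) or 2 (-0.78). In cKO mice Ern1 had 6.09, 10.8 and 10.9 CPM in spleen and 5.18, 8.32 and 5.85 in lymph node, groups that overlap (-0.53 ± 0.32, adjusted p = 0.247). Atf6 had 7.65, 11.3 and 12.4 CPM in spleen and 18.2, 17.1 and 28.5 in lymph node controls (1.02 ± 0.23, adjusted p = 0.00248). In cKO mice Atf6 had 13, 13.7 and 16.3 CPM in spleen and 14.1, 12.9 and 15.6 in lymph node, with no call (-0.02 ± 0.23, adjusted p = 0.968). Eif2ak3 was called in neither genotype, at -0.10 ± 0.22 in control (adjusted p = 0.752) and 0.51 ± 0.23 in cKO mice (adjusted p = 0.104). Ddit3, which encodes the death-linked factor CHOP, stayed between 35.3 and 46.6 CPM in all 12 libraries and was called in neither genotype, at -0.09 ± 0.12 (adjusted p = 0.548) and 0.05 ± 0.12 (adjusted p = 0.772).

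Xbp1 (chr11:5520659-5525893) differed between tissues in cKO mice by the threshold used, and in control mice it missed it. Spleen controls had 59.5, 46.5 and 56.1 CPM and lymph node controls 42.9, 49.4 and 44.7, which overlap (log2 difference -0.24 ± 0.12, adjusted p = 0.128). Spleen cKO libraries had 88.4, 96.2 and 75.7 CPM and lymph node cKO libraries 40.5, 40.9 and 46.6 (-1.02 ± 0.12, adjusted p = 1.52e-05). The test of whether the 2 tissue differences differ is given below with the effect of Epor deletion.

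Chaperones of the ER lumen were mostly lower in lymph node cDC1s. Of 9 chaperones and co-chaperones, 7 were lower in lymph node in control mice and 8 in cKO mice, none was higher, and their median log2 difference was -0.61 and -0.92. Hspa5 (chr2:34771970-34777547), the master chaperone that also holds the sensors inactive, had 504, 507 and 547 CPM in spleen controls and 404, 400 and 333 in lymph node controls. This was 1.37-fold lower in lymph node without overlap (-0.45 ± 0.09, adjusted p = 0.000684). In cKO mice the spleen had 632, 635 and 586 CPM and the lymph node 307, 274 and 324, a 2.05-fold difference (-1.03 ± 0.09, adjusted p = 4.08e-07).

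Creld2 (chr15:88819646-88826683), a secreted ER stress marker whose promoter is printed above, had 72.1, 58.6 and 81.5 CPM in spleen and 35.8, 48 and 39.5 in lymph node controls (-0.78 ± 0.15, adjusted p = 0.000559). In cKO mice it had 91.1, 99.4 and 104 CPM in spleen and 37.2, 29.4 and 39.8 in lymph node (-1.47 ± 0.15, adjusted p = 2.48e-06). Manf, an ER-resident survival factor, had 91.2, 86.5 and 101 CPM in spleen and 40.4, 47.3 and 48.9 in lymph node cKO libraries (-1.03 ± 0.13, adjusted p = 1.74e-05). None of these groups overlapped. Among the other chaperones, Hsp90b1, Dnajb9, Dnajc3, Sdf2l1 and Manf were also lower in controls, by log2 differences between -0.46 and -0.87. In cKO mice Hsp90b1, Dnajb9, Dnajc3 and Sdf2l1 were lower by -0.63 to -1.02. The Sdf2l1 call in controls was lost without spleen library 3 (-0.31) and without lymph node library 3 (-0.35). Hyou1 was called in neither genotype, and Dnajb11 was lower in cKO mice (-0.42 ± 0.10, adjusted p = 0.00634) but not called in controls (0.12 ± 0.10, adjusted p = 0.404).

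The disulfide isomerases, which form and rearrange disulfide bonds, were lower for 1 of 4 in control and for 4 of 4 in cKO mice. Pdia6 had 144, 153 and 214 CPM in spleen and 96.9, 98.6 and 86.2 in lymph node controls (-0.86 ± 0.13, adjusted p = 6.68e-05). In cKO mice it had 201, 223 and 194 CPM in spleen against 89.6, 96.9 and 102 in lymph node (-1.10 ± 0.13, adjusted p = 9.42e-06). Pdia4 overlapped between tissues in controls, with 23.5, 30.4 and 40.7 CPM in spleen and 29.6, 29.7 and 21.3 in lymph node (-0.23 ± 0.20, adjusted p = 0.382). It did not overlap in cKO mice, with 52.7, 55.3 and 46.3 against 19.2, 21.5 and 27.6 CPM (-1.18 ± 0.20, adjusted p = 0.000336). Of the other isomerases, P4hb (-0.63) and Pdia3 (-0.35) were lower in cKO mice, and the Pdia3 call was lost in 4 of the 6 fits that left out 1 library (-0.26 to -0.37). Of the lectin chaperones, Canx was lower in both genotypes by -0.22 and -0.31, and Calr in cKO mice by -0.37. The Canx call in controls was lost in 4 of the 6 fits that left out 1 library, with values of -0.15 to -0.19. In cKO mice the Canx call was lost without spleen library 3 (-0.26) or lymph node library 1 (-0.29), and the Calr call without spleen library 2 (-0.25) or lymph node library 2 (-0.29).

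The subunits of the Sec61 channel moved apart. Sec61b had 216, 212 and 205 CPM in spleen and 91, 90.1 and 101 in lymph node controls (-1.17 ± 0.09, adjusted p = 9.47e-08). Sec61a1, the pore subunit, had 82.9, 83.3 and 79.3 CPM in spleen and 155, 138 and 128 in lymph node controls (0.78 ± 0.10, adjusted p = 1.4e-05). In cKO mice the log2 difference was -0.89 ± 0.09 for Sec61b (adjusted p = 2.46e-06) and 0.28 ± 0.10 for Sec61a1 (adjusted p = 0.0432). The latter call was lost without any 1 of 5 of the 6 libraries, the exception being spleen cKO library 2.

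ER-associated degradation genes, which extract and destroy misfolded proteins, went both ways. Herpud1 (chr8:94386438-94395377), the gene with CARE and ERSE-II, had 659, 634 and 755 CPM in spleen and 296, 344 and 287 in lymph node controls (-1.14 ± 0.10, adjusted p = 4.52e-07). In cKO mice it had 772, 823 and 739 CPM in spleen and 371, 328 and 427 in lymph node (-1.05 ± 0.10, adjusted p = 1.74e-06). Edem2 (chr2:155701677-155729475), a mannosidase-like degradation factor, was higher in lymph node, with 59.8, 49.3 and 60.3 CPM in spleen and 130, 124 and 123 in lymph node controls (1.16 ± 0.11, adjusted p = 6.97e-07). In cKO mice Edem2 had 90.4, 85.4 and 71.1 against 107, 109 and 118 CPM (0.44 ± 0.11, adjusted p = 0.00578). Its close relative Edem1 was lower in lymph node in both genotypes, each by -0.45 ± 0.11.

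Derl3 (chr10:75893413-75895941), a derlin that is typical of secretory cells, had the largest log2 difference of all members in both genotypes. It had 3.18, 7.15 and 3.27 CPM in spleen controls and 0.738, 0.268 and 0.242 in lymph node controls, the latter from 33, 12 and 10 counts (-3.43 ± 0.65, adjusted p = 0.000561). In cKO mice it had 8.9, 14 and 8.53 CPM in spleen and 0.13, 0.206 and 0.833 in lymph node, from 6, 9 and 44 counts (-4.72 ± 0.67, adjusted p = 7.25e-05). Chac1, a glutathione-degrading ATF4 target, had 4.66, 1.45 and 3.41 CPM in spleen and 0.895, 0.962 and 0.29 in lymph node controls (-2.14 ± 0.60, adjusted p = 0.00937). It missed the threshold in cKO mice (-1.46 ± 0.58, adjusted p = 0.0722). Derl2 was lower in both genotypes (-0.40 and -0.33) and Derl1 in cKO mice (-0.46). Without spleen control library 3 the Derl2 call in controls was lost (-0.27), as it was in cKO mice in 5 of the 6 fits without 1 library (-0.29 to -0.33). Syvn1, Sel1l, Ppp1r15a, Trib3, Asns and Wfs1 were called in neither genotype.

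**Figure D2:**
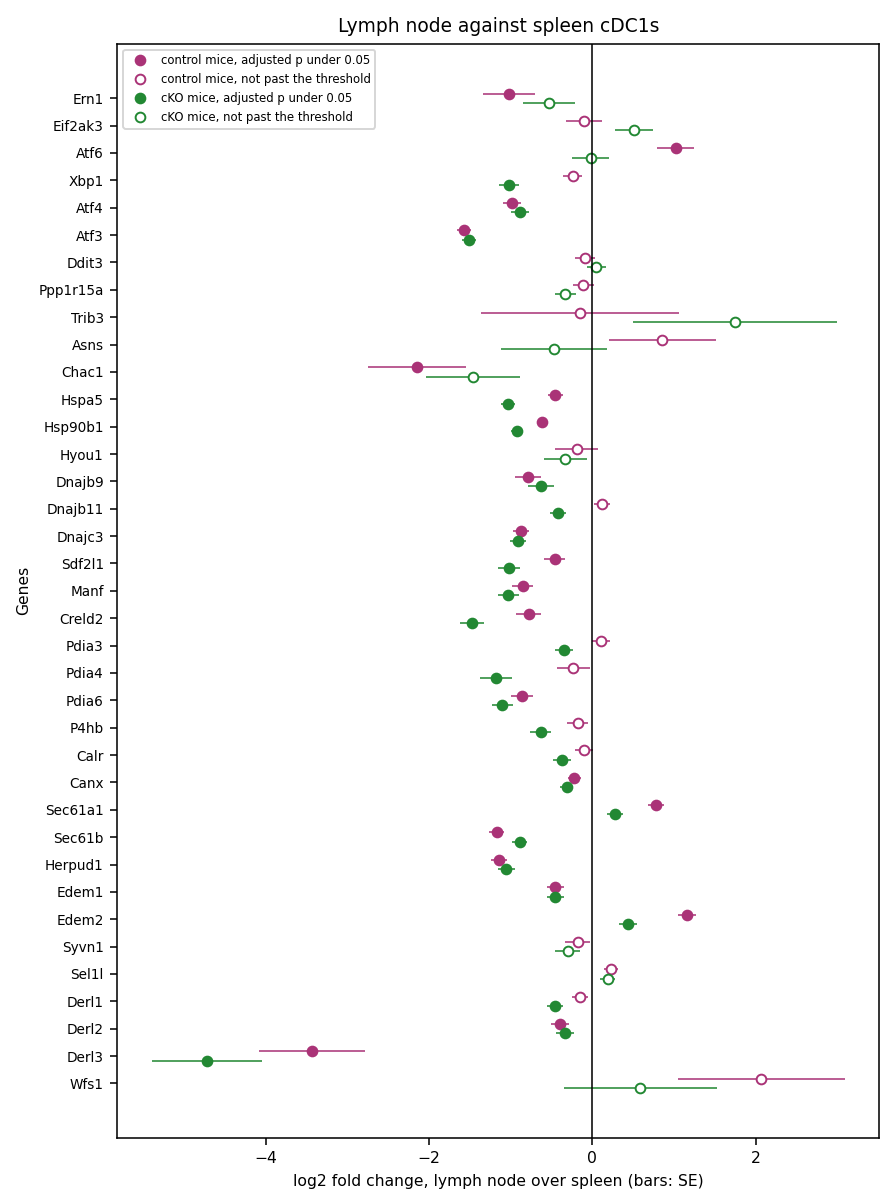
Points give the log2 fold change of each of the 37 genes, lymph node over spleen, in control and in cKO mice, with SE bars; filled points passed an adjusted p of 0.05. Most filled points lie left of 0, Derl3 lies farthest left at -3.43 and -4.72, and Sec61a1 and Edem2 are filled on the right in both genotypes.

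The members with an ERSE match were 7 of 9 lower in lymph node in control and 8 of 9 in cKO mice, with median log2 differences of -0.61 and -0.92. Among the 23 members with a promoter entry but no ERSE match, 10 and 13 were lower, with medians of -0.23 and -0.47. These 23 include the members with CARE or ERSE-II. Over all genes, 20.3% were lower in control and 15.3% in cKO mice. The 9 with ERSE are mostly chaperones, and no test was made of this contrast. All 3 members with CARE were lower in control and 2 of them in cKO mice.

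Other measures moved between the tissues too. Summed CPM of 15 plasma cell markers, the cell type in which XBP1 and Derl3 are known to be abundant, were 2500 to 2677 in spleen controls, 5238 to 5667 in spleen cKO, 337 to 370 in lymph node controls and 322 to 371 in lymph node cKO. The list had 12 of 15 genes lower in lymph node in each genotype, and Tnfrsf17 and Ighg1 at 0 in lymph node controls. All 10 genes of the cytosolic heat shock list were lower in lymph node in both genotypes, with sums of 7491 to 7914 and 4393 to 4586 CPM in spleen and lymph node controls, and 6184 to 6312 and 3455 to 3615 CPM in cKO mice. Across the 37 members, the log2 difference rose with summed exon length (Spearman 0.355 in control and 0.474 in cKO mice, against 0.177 and 0.159 across all genes), a description across genes that share libraries. Of 15 cDC1 markers, 11 were lower and 1 higher in lymph node controls, and 12 were lower and 1 higher in lymph node cKO. Of 16 genes of CCR7-linked maturation, 9 were higher and 4 lower in controls, and 8 were higher and 4 lower in cKO mice. Over all genes, 20.3% were lower and 21% higher in controls, and 15.3% lower and 14.1% higher in cKO mice. The part of these measures in the results was not tested.

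Deletion of Epor was compared with control within each tissue. In spleen, 2 of the 37 members passed the threshold and both were higher in cKO, which is 5.41% where 0.49% of all genes were called higher; none was lower, where 0.121% were, and 0.611% of all genes were called in either direction. Without adjustment, 9 members had p under 0.05 (24.3%, against 13% of all genes), and DESeq2 called 3 higher (8.11%, against 2.46%), adding Pdia4. In 15 members all cKO libraries lay above all controls (40.5%, against 9.54% of all genes), and in 4 they lay below (10.8%, against 8.42%). The median log2 difference of the members was 0.19 and that of all genes 0.00.

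Xbp1 was higher in spleen cKO cDC1s, at 88.4, 96.2 and 75.7 CPM against 59.5, 46.5 and 56.1 in controls. All cKO values lay above the controls, 1.6-fold on average (log2 difference 0.68 ± 0.12, adjusted p = 0.0226). Edem2 was also higher, at 90.4, 85.4 and 71.1 against 59.8, 49.3 and 60.3 CPM (0.54 ± 0.11, adjusted p = 0.0355). Both calls were lost without spleen control library 2 (Xbp1 0.61, Edem2 0.47), without cKO library 1 (0.69 and 0.49) or without cKO library 2 (0.62 and 0.54). With immunoglobulin segments and markers of other cells left out before scaling, Xbp1 kept its call (adjusted p = 0.0462) and Edem2 did not (adjusted p = 0.059). That setting drops other genes and leaves the members' own counts as they were, so it cannot show which cells gave those reads.

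Hspa5, Pdia4, Creld2 and Derl3 were not called in spleen cKO. Hspa5 had 632, 635 and 586 CPM in cKO and 504, 507 and 547 in control spleen, which do not overlap (0.25 ± 0.09, adjusted p = 0.24). Pdia4 (0.71 ± 0.20, adjusted p = 0.143) and Creld2 (0.48 ± 0.15, adjusted p = 0.177) were likewise separate between groups but missed the threshold. Derl3 had 8.9, 14 and 8.53 CPM against 3.18, 7.15 and 3.27 (1.21 ± 0.58, adjusted p = 0.389). The other sensors and factors had log2 differences of -0.10 ± 0.32 for Ern1 (adjusted p = 0.946), -0.35 ± 0.23 for Eif2ak3 (adjusted p = 0.554), 0.46 ± 0.23 for Atf6 (adjusted p = 0.433), -0.06 ± 0.11 for Atf4 (adjusted p = 0.891) and -0.24 ± 0.12 for Ddit3 (adjusted p = 0.39).

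Over the 12 spleen and lymph node libraries, the genes whose log2 CPM followed Xbp1 most closely were Mzb1 (Pearson r = 0.976), Zg16 (0.975) and the immunoglobulin segments Ighv6-3 (0.969), Ighv1-39 (0.967) and Ighv1-74 (0.965). All 5 were low, and the highest group mean was 5 CPM for Ighv6-3 in spleen cKO. The closest member, Creld2 (0.905), ranked at 85. Plasma cell markers rose with Xbp1 in spleen cKO: 5 of the 15 were called higher and none lower, with Jchain at 764, 753 and 734 CPM against 345, 382 and 380. Summed CPM of 15 pancreatic acinar genes were 28.1 to 33.8 in cKO and 10 to 24.7 in control spleen. The part of these transcripts in the Xbp1 difference was not tested.

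**Figure D3:**
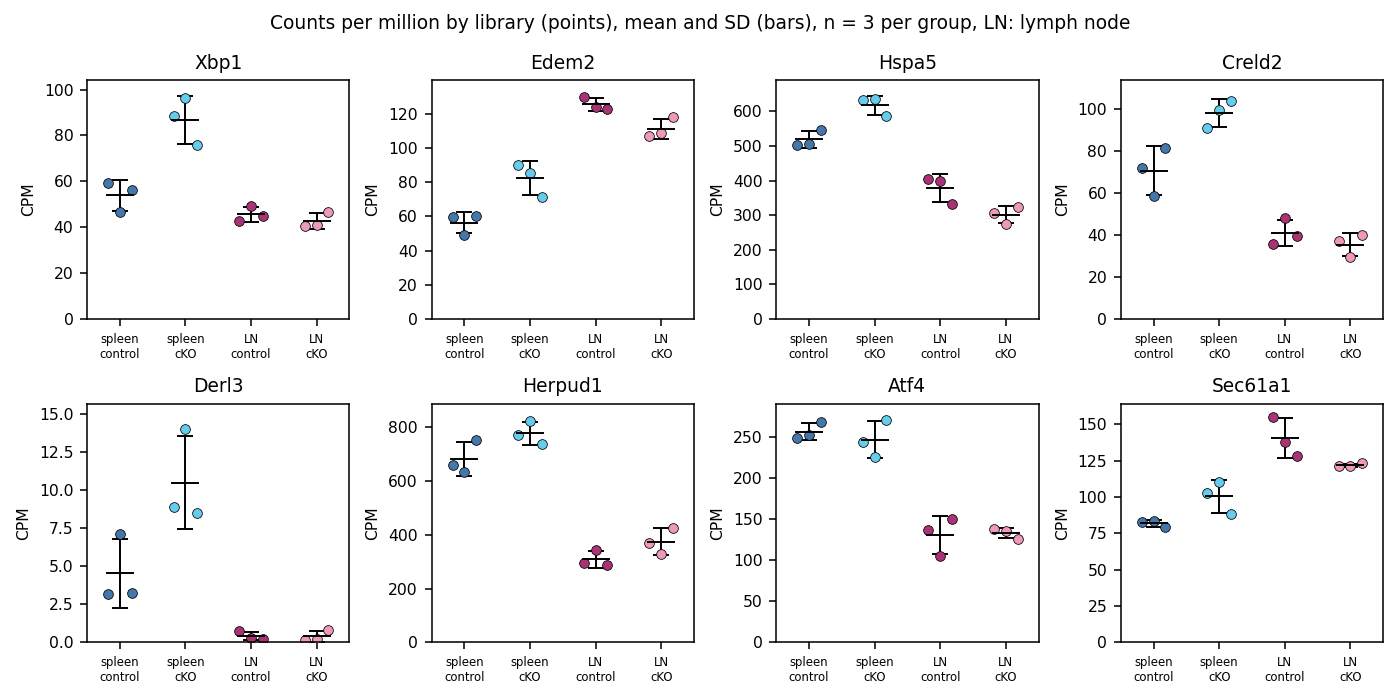
Points are CPM of single libraries in the 4 groups for 8 genes, with the mean and SD over 3 libraries. Xbp1 and Edem2 are higher in spleen cKO than in spleen control, Hspa5, Creld2, Derl3, Herpud1 and Atf4 are lower in both lymph node groups, and Edem2 and Sec61a1 are higher there.

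In the lymph node none of the 37 members passed the threshold, where 0.455% of all genes did (0.288% higher and 0.167% lower), and 6 had an unadjusted p under 0.05 (16.2%, against 7.51% of all genes). DESeq2 also called 0 members, where it called 1.17% of all genes. No member had all cKO libraries above all controls, where 7.8% of all genes did, and 8 had them below (21.6%, against 7.72% of all genes). Hspa5 had 307, 274 and 324 CPM in cKO and 404, 400 and 333 in control lymph node, which do not overlap (-0.33 ± 0.09, adjusted p = 0.203). Xbp1 had 40.5, 40.9 and 46.6 against 42.9, 49.4 and 44.7 CPM, which overlap (-0.10 ± 0.12, adjusted p = 0.973). The log2 differences of the other sensors and factors ran from -0.58 ± 0.23 for Atf6 (adjusted p = 0.551) to 0.40 ± 0.32 for Ern1 (adjusted p = 0.907), with Eif2ak3 at 0.26 ± 0.22, Atf4 at 0.03 ± 0.11 and Ddit3 at -0.09 ± 0.11.

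Whether deletion acted differently in the 2 tissues was tested as an interaction, lymph node minus spleen. By edgeR 0 of the 37 members passed (0.317% of all genes did, 0.127% higher and 0.19% lower), and 14 had an unadjusted p under 0.05 (37.8%, against 12.5% of all genes). DESeq2 called 5 lower, namely Dnajb11, Edem2, Hspa5, Sec61a1 and Xbp1 (13.5%, against 1.63% of all genes). The lowest adjusted p values by edgeR were those of Edem2 (-0.72 ± 0.15, adjusted p = 0.0603), Hspa5 (-0.58 ± 0.12, adjusted p = 0.0644) and Xbp1 (-0.78 ± 0.17, adjusted p = 0.0751). Those of Ern1, Eif2ak3, Atf6, Atf4 and Ddit3 were 0.716, 0.452, 0.202, 0.884 and 0.773. The median over the members was -0.22 and over all genes 0.01, and the plasma cell list had 6 of 15 genes lower in this test. Without spleen control library 3 the fit called 3 members (8.11%, against 1.2% of all genes), and without spleen cKO library 3 or lymph node control library 3 it called 1 (2.7%, against 0.221% and 0.362%). The 4 groups are shared between this test, the deletion comparisons and the tissue comparisons, so these are not independent results.

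After TLI/ATS none of the 37 members passed the threshold, where 2.7% of the 17236 genes tested did (0.499% higher and 2.2% lower); 8 had an unadjusted p under 0.05 (21.6%, against 15.7% of all genes), and DESeq2 called 0, where it called 7.02% of all genes. Of the 37, 30 had a positive log2 difference, with a median of 0.26 against 0.02 over all genes. In 21 both treated libraries lay above both untreated ones (56.8%, against 22.5% of all genes) and in 3 below (8.11%, against 25% of all genes). Chaperones and disulfide isomerases had medians of 0.40 and 0.48. Pdia6 had 709 and 656 CPM after TLI/ATS and 459 and 483 untreated (0.54 ± 0.15, adjusted p = 0.181). Creld2 had 224 and 281 against 159 and 166 CPM (0.64 ± 0.18, adjusted p = 0.185). These groups did not overlap, yet their differences missed the threshold.

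For the sensors and factors the treated libraries often lay on both sides of the untreated ones. Ern1 had 23.8 and 10.4 CPM after TLI/ATS and 16.8 and 14.1 untreated (0.15 ± 0.42, adjusted p = 0.929), and Atf6 had 86 and 44.1 against 61.5 and 62.5 (0.07 ± 0.34, adjusted p = 0.962). Eif2ak3 had 38 and 22.9 against 27 and 29.2 CPM (0.12 ± 0.29, adjusted p = 0.914). In contrast, Xbp1 had 284 and 311 against 233 and 238 CPM (0.34 ± 0.16, adjusted p = 0.401) and Hspa5 1132 and 934 against 826 and 853 (0.30 ± 0.17, adjusted p = 0.501), both without overlap. Ddit3 had 8.39 and 13.4 against 15.7 and 14.9 CPM (-0.50 ± 0.29, adjusted p = 0.513). Atf4 had 144 and 171 against 158 and 158 CPM, with a difference of 0.00 when rounded (± 0.17, adjusted p = 0.995).

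The 2 TLI/ATS libraries stood apart from each other along gene length. Among the members the log2 ratio of library 1 to library 2 followed summed exon length with a Spearman correlation of 0.606, against -0.126 in the untreated pair (0.459 and -0.113 across all genes). The ratio was 1.18 for Hyou1 and -0.70 for Sec61b, and its median size was 0.32 after TLI/ATS and 0.06 untreated. Leaving out TLI/ATS library 1 gave 14 members called (37.8%, against 27.6% of all genes), and leaving out library 2 gave 22 (59.5%, against 26.1%). In these fits the spread rests on the untreated pair, and the lone treated library is assumed to vary like it. Both fits use the same untreated libraries, and some members changed direction between them. Among these, Atf6 was lower without library 1 and higher without library 2. Sec61b was higher without library 1 and lower without library 2.

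Markers of other cells also differed after TLI/ATS. Plasma cell marker sums were 2248 and 4552 CPM after TLI/ATS and 2033 and 2000 CPM untreated, with 2 of 15 genes called lower. B cell markers summed to 50.9 to 58.2 against 697 to 701 CPM (12 of 12 lower), and T cell markers to 29.1 to 37.8 against 857 to 859 CPM (14 of 14 lower). Plasmacytoid dendritic cell markers summed to 258 to 276 against 1199 to 1206 CPM, with 9 of 12 lower. Macrophage markers were at 1460 to 1862 against 501 to 502 CPM (8 of 15 higher), and erythroid markers at 1429 to 1470 against 206 to 215 CPM (7 of 10 tested higher). Their part in the members' values was not tested.

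**Figure D4:**
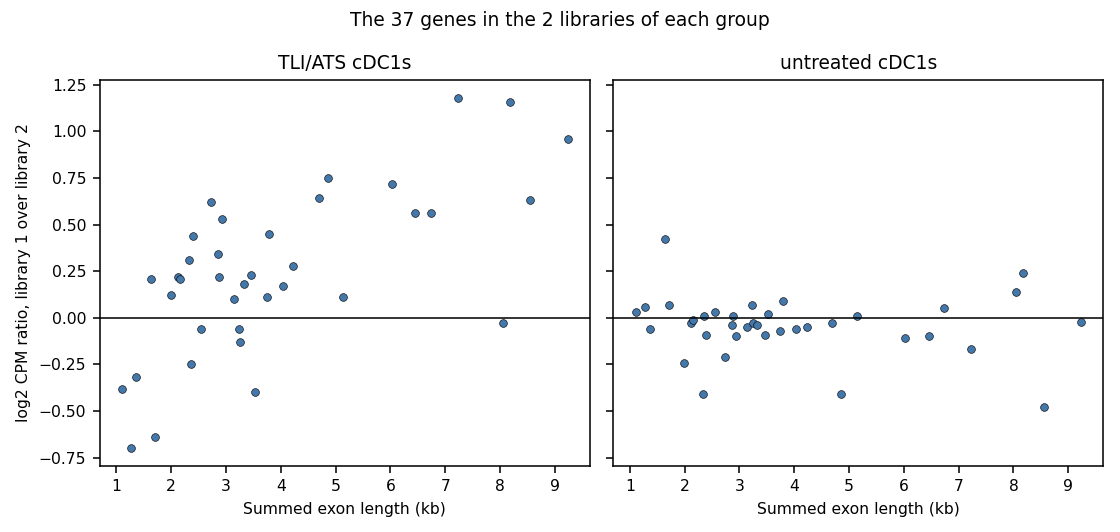
Each point is 1 of the 37 genes; the x axis is summed exon length in kb and the y axis the log2 CPM ratio of library 1 to library 2, for the TLI/ATS pair on the left and the untreated pair on the right. The treated pair spreads from -0.70 to 1.18 and rises with length, while the untreated pair lies between -0.48 and 0.42.

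In the EpoR+ fraction 2 of the 37 members passed the threshold against EpoR- cDC1s (5.41%), where 16.7% of 15627 genes did (11.9% higher and 4.75% lower). Asns (chr6:7675169-7693254), the asparagine synthetase and a target of ATF4, was higher, and Ern1 was lower. Asns had 17.1 and 15.9 CPM in EpoR+ and 6.12 and 4.64 in EpoR- cDC1s, a 3.06-fold difference (1.61 ± 0.23, adjusted p = 0.00831). Ern1 had 67.2 and 69.4 CPM in EpoR+ and 92.7 and 93.9 in EpoR- cDC1s (-0.45 ± 0.10, adjusted p = 0.0395). Neither pair overlapped. The Ern1 call was lost without any 1 of the 4 libraries, at values of -0.44 to -0.46, while Asns kept its call in each such fit.

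Both EpoR+ libraries lay above both EpoR- libraries in 12 members (32.4%, against 32% of all genes) and below in 10 (27%, against 26.1%), shares near the background. Without adjustment, 9 members had p under 0.05 (24.3%, against 29.9% of all genes), and DESeq2 called 4 (10.8%, against 19.4%), adding Dnajb9 higher and Chac1 lower. By edgeR, Chac1 had 1.66 and 3.06 CPM against 4.94 and 6.72 (-1.30 ± 0.42, adjusted p = 0.103). Hspa5 had 1248 and 1538 CPM in EpoR+ and 1251 and 1551 in EpoR- cDC1s; the fractions overlapped (-0.01 ± 0.16, adjusted p = 0.982). Xbp1 had 185 and 192 against 162 and 155 CPM (0.24 ± 0.10, adjusted p = 0.174), and Atf6 128 and 115 against 157 and 146 (-0.32 ± 0.11, adjusted p = 0.131). Eif2ak3 differed by -0.10 ± 0.12 (adjusted p = 0.656) and Atf4 by -0.06 ± 0.25 (adjusted p = 0.914).

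Atf3, Ppp1r15a and Ddit3, which respond quickly to stress, differed between the 2 libraries of each fraction. Atf3 had 118 and 518 CPM in EpoR+ and 151 and 441 in EpoR- cDC1s, so that library 2 was 4.37-fold and 2.92-fold above library 1 (fraction difference 0.10 ± 0.98, adjusted p = 0.968). Ppp1r15a had 135 and 258 against 105 and 186 CPM, and Ddit3 had 6.2 and 14.8 against 3.07 and 5.71 (1.26 ± 0.53, adjusted p = 0.193). These 3 members lay over 0.5 on the log2 scale higher in library 2 in both fractions (8.11%), as did 8.04% of all genes. The heat shock gene Hspa1b had 91.3 and 709 CPM in EpoR+ and 260 and 1096 in EpoR- cDC1s. The whole cytosolic heat shock list moved less, with sums of 3242 and 5169 CPM in EpoR+ and 4810 and 6641 in EpoR- libraries. The labels do not say whether libraries numbered alike share a day or an animal.

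**Figure D5:**
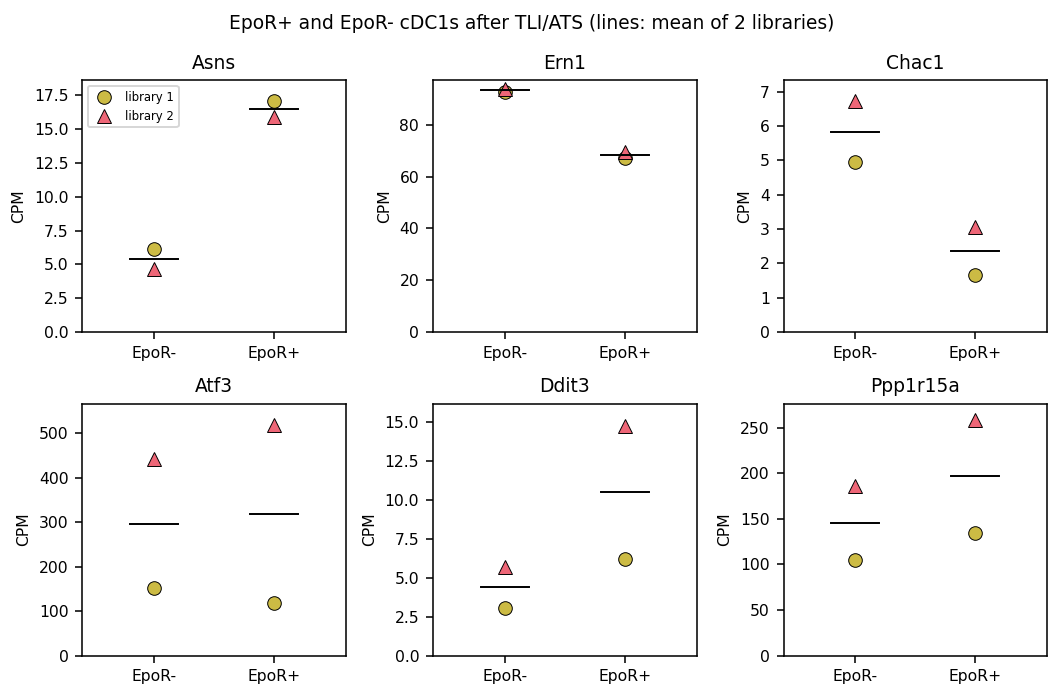
Points are CPM in the EpoR- and EpoR+ libraries for 6 genes, circles for library 1 and triangles for library 2, with lines at the means of 2. Asns and Ern1 separate the fractions, while for Atf3, Ddit3 and Ppp1r15a library 2 lies above library 1 in both fractions.

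Other cell markers differed strongly between these fractions. Summed CPM of 15 macrophage markers were 23196 to 23565 in EpoR+ and 441 to 448 in EpoR- cDC1s, with all 15 called higher, while 13 of 15 cDC1 markers were called lower. Xcr1 had 494 and 409 CPM in EpoR+ and 1152 and 1059 in EpoR- libraries. Pancreatic acinar genes summed to 209 and 175 CPM in EpoR+ libraries 1 and 2, and to 3176 and 221 CPM in EpoR- libraries 1 and 2. Their part in the Asns and Ern1 differences was not tested.

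Beyond the 37 members, 184 further genes of the same pathways were listed, among them other stress factors, ATF4 targets, folding enzymes, degradation factors, N-glycosylation and ER to Golgi transport. After TLI/ATS 0 of 177 tested passed by edgeR and 0 by DESeq2, where 2.7% and 7.02% of all genes did. Without adjustment, 13 of the 177 had p under 0.05, where 15.7% of all genes did. In EpoR+ cDC1s 14 of 180 were higher and 4 lower (7.78% and 2.22%), shares under the 11.9% and 4.75% of all genes. The higher ones were led by Ddit4, an mTORC1 inhibitor induced by stress (4.38 ± 0.18, adjusted p = 0.000121), and Cebpb, a partner of ATF4 (3.42 ± 0.45, adjusted p = 0.0145). Hgsnat (2.18) and Creb3l2 (1.28) were also higher, and the isomerase Pdia5 (-1.09), the oxidase Ero1lb (-0.87), Mthfd2 (-0.66) and Man1b1 (-0.42) were lower. Macrophage and other cell markers differed between these fractions, as given above, and their part in these differences was not tested. In spleen cKO 2 of 179 were higher (1.12%, against 0.49% of all genes) and none lower. These were Txndc5, a disulfide isomerase with 66.8, 76.5 and 54.7 CPM against 24.8, 38.2 and 40 in controls (0.94 ± 0.18, adjusted p = 0.026), and the integrin Itgb2, a reported substrate of IRE1-dependent decay, with 46.4, 47.6 and 40.6 against 19.4, 29.2 and 24.7 (0.88 ± 0.17, adjusted p = 0.0288).

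Bcl2l11, the death effector BIM that CHOP is known to induce, was the sole listed gene that passed in lymph node cKO and in the interaction test. It had 66.2, 89.3 and 65.3 CPM in cKO and 48.1, 47.4 and 43 in control lymph node (0.67 ± 0.11, adjusted p = 0.00992). In spleen it had 167, 173 and 164 CPM in cKO and 204, 189 and 179 in control libraries, and the difference of the effects was 0.86 ± 0.16 (adjusted p = 0.0295).

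Between tissues, 55 of 179 listed genes were higher and 40 lower in lymph node controls (30.7% and 22.3%, against 21% and 20.3% of all genes), and 41 higher and 40 lower in lymph node cKO (22.9% and 22.3%, against 14.1% and 15.3%). Higher in both were Selenom, a selenoprotein of the ER (3.43 and 3.50), the COPII subunit Sec24d (2.07 and 1.84) and the tryptophan tRNA ligase Wars (2.07 and 1.50). Slc7a5 (1.61), an amino acid transporter, was among the 4 highest in controls and Mthfd2 (1.16) in cKO mice. Pdia5 was lowest in both (-2.14 each), followed in controls by Bcl2l11 (-2.05), the arginine transporter Slc7a1 (-1.65) and Nfe2l2 (-1.34), and in cKO mice by the peroxiredoxin Prdx4 (-1.39), Selenos (-1.33) and Fkbp2 (-1.30). The ER to Golgi list had 11 of 30 genes higher and 2 lower in controls, with a median of 0.41. The translocation and N-glycosylation list had 5 of 32 higher and 11 lower, with a median of -0.16. Over all 179 genes the median was 0.15 in control and -0.06 in cKO mice.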

How the data were processed

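Raw read counts per gene in 3 tables, deposited by the authors without normalization, were analysed for 20 libraries. For the first 2 tables, the submitters' processing notes name GRCm38 with HISAT2, SAMtools, StringTie and featureCounts. Per the file headers, featureCounts 2.0.3 counted the second table and 2.0.8 the third (Ensembl GRCm38 release 100, HISAT2 2.1.0 per the notes); both counted each read of a pair, unstranded, so opposite-strand neighbours cannot be separated. Hsp90b1 shares over 10% of its exon bases with another gene and Ddit3 with a second model of its own name, which had 0 counts. Amplified reads carry no molecular identifiers.

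Groups came from the sample titles. Each table was fitted apart in edgeR 4.0.16 (R 4.3.3; TMM, at least 10 counts by group and 15 in total, robust quasi-likelihood), with Benjamini-Hochberg adjustment over all genes. All groups of a table entered its fit. SEs were derived from the F statistic. DESeq2 1.42.0, other scaling, no filter, a replicate block and leaving out libraries were alternatives. Correlations used log2(CPM + 0.5), except those between same-numbered libraries, which used edgeR log2 CPM as deviations from the group mean. The fit was tested on simulated data. The 7 comparisons covered 37 members. Named were 7 members in each comparison (Ern1, Eif2ak3, Atf6, Xbp1, Atf4, Ddit3 and Hspa5), up to 8 called members with the largest change, and up to 4 other pathway genes per direction with a mean log2 CPM of 3 or more; others were chosen after their values were seen. Members and lists were chosen with earlier results of these data known.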

Additional observations from a re-analysis of the deposited data

Results flagged for a closer look

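Bcl2l11, a pathway gene outside the 37 members, differed in its response to Epor deletion between tissues: the effect in lymph node exceeded that in spleen by 0.86 on the log2 scale in the interaction test (SE 0.16, adjusted p = 0.0295, edgeR). It was higher in all 3 lymph node cKO libraries than in all 3 lymph node controls, as were 7.8% of all genes. In spleen all 3 cKO libraries lay below all 3 controls, as in 8.42% of all genes, but that difference did not pass the threshold.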

How the results depend on the processing

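Over 90 results for single members and their alternatives, 1060 of 1160 values kept their direction and side of the threshold, 61 kept the direction but lost the call, 17 gained it and 22 changed sign. Counts of members called kept within 1.5 times the number given in the report for both tissue comparisons and for the lymph node deletion comparison under every alternative run. After TLI/ATS, leaving out 1 library gave 0 to 22 members. For EpoR+ the count of 2 became 4 without a filter on low counts, 4 by DESeq2, 1 at an adjusted p of 0.01, 1 without any 1 library and 16 with the replicate block. For spleen deletion the count of 2 became 5 without the filter, 1 with genes of other cells left out, 1 with the compared groups alone, 0 with the replicate block, 0 at an adjusted p of 0.01 and 0 to 4 without 1 library. For the interaction the count of 0 became 5 without the filter, 5 by DESeq2 and 0 to 3 without 1 library. Counts over all genes moved under many of these settings too, as given below. The member counts alone therefore do not show a change particular to the members.

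Same-numbered libraries are not stated to be paired, and in the third table their deviations did not go together in every pair. In the second table the deviations of same-numbered libraries correlated at 0.424 across genes, with 2 pairs only, and the replicate block called 8 members higher and 8 lower there (43.2% of members, against 34.2% of all genes), where without it the share was lower among the members (5.41%, against 16.7%).

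Values that changed sign all belonged to members not called. Without 1 library, the range after TLI/ATS was -0.57 to 0.62 for Ern1, -0.29 to 0.44 for Eif2ak3, -0.49 to 0.47 for Atf6 and -0.13 to 0.12 for Atf4. For EpoR+ it was -0.34 to 0.28 for Atf4 and -0.16 to 0.15 for Hspa5. In spleen deletion it was -0.21 to 0.15 for Ern1 and -0.10 to 0.02 for Atf4. For Atf4 it was -0.10 to 0.14 in lymph node deletion and -0.05 to 0.20 in the interaction. Between tissues it was -0.23 to 0.09 for Eif2ak3 in controls and -0.09 to 0.10 for Atf6 in cKO mice. Under other settings, after TLI/ATS Atf6 was at -0.01 with the replicate block, and Atf4 at 0.00 with RLE scaling, 0.04 without the filter and 0.03 by DESeq2. Atf6 in cKO mice was at 0.01 between tissues without the filter. The cause was not tested.

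Counts over all genes moved by more than 1.5 times under some settings. After TLI/ATS, 465 genes became 1324 by DESeq2, 1264 with the replicate block, 95 at an adjusted p of 0.01 and up to 4908 without 1 library. For EpoR+, 2606 became 5347 with the block, 1267 at 0.01 and as few as 1454 without 1 library. For spleen deletion, 106 became 436 without the filter, 647 by DESeq2, 21 with genes of other cells left out, 40 with the block, 30 at 0.01 and 31 to 379 without 1 library. For lymph node deletion, 79 became 170 without the filter, 204 by DESeq2, 49 with genes of other cells left out, 44 with the compared groups alone, 47 at 0.01 and as few as 51 without 1 library. For the interaction, 55 became 364 without the filter, 507 by DESeq2, 15 with genes of other cells left out, 34 with the block, 19 at 0.01 and 29 to 222 without 1 library. Low members such as Trib3, Asns and Wfs1 are limited by their counts in the third table.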

Other observations

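Listed ATF4 targets outside the 37 members, most of them enzymes and carriers of amino acid supply, went both ways between tissues. In lymph node controls, where Atf4 was lower by 0.98 on the log2 scale, 12 of 27 targets tested were higher, 4 lower and 11 not called (44.4% and 14.8% higher and lower, against 21% and 20.3% of all genes), with a median of 0.54. In lymph node cKO, where Atf4 fell by 0.89, 8 were higher, 5 lower and 14 not called (29.6% and 18.5%, against 14.1% and 15.3% of all genes), with a median of 0.25. Of 9 reported substrates of IRE1-dependent decay, 4 were higher and 1 lower in lymph node controls (44.4% and 11.1%, against 21% and 20.3% of all genes). In lymph node cKO 4 were higher and 2 lower (44.4% and 22.2%, against 14.1% and 15.3% of all genes). No protein or phosphorylation was measured, and what links these values was not tested.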
